A study of Mus musculus with 2 samples.

Results

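The Ikaros family genes Ikzf1 to Ikzf5 were examined for open chromatin in mouse CD8-positive alpha-beta T cells in the naive resting state, the circulating precursors of cytotoxic T cells. The 5 genes are all the members of the family, out of 21824 protein-coding genes in the GENCODE M21 annotation of mm10. Each gene body was widened by 50 kb at both ends to give its locus, and every peak and footprint inside it was taken. Open chromatin was measured by DNase-seq, in which nuclei are digested with the nuclease DNase I and the cut ends are sequenced, so that accessible DNA gives many cuts. The data were 2 libraries of 1 group, labelled biological replicates 2 and 3, each technical replicate 1, from male adult B6CASTF1/J mice aged 2 months. B6CASTF1/J mice are a cross of a C57BL/6 and a CAST parent, and no treatment or engineered allele is named. The donor label is common to both libraries and the biosample labels differ. The labels do not state whether separate animals were used, and spreads between the libraries may be technical. With 1 group, no comparison between conditions was possible, and all values below describe these libraries.

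Ikaros family proteins are zinc-finger transcription factors that bind DNA through fingers near the amino terminus and pair with each other through fingers at the carboxyl terminus. They recruit chromatin remodelling and deacetylase complexes, among them NuRD, and can silence or maintain genes. Ikaros (Ikzf1) is needed for lymphocyte development and restrains T cell activation. Helios (Ikzf2) is best known from regulatory T cells and early T cell precursors, Aiolos (Ikzf3) from B cells and from T cells after activation, and Eos (Ikzf4) from regulatory T cells. Pegasus (Ikzf5) is the most divergent and most widely expressed member.

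Each library came with a shorter and a longer list of peaks. The shorter one, called the stricter list here, gave the main values, and "permissive" stands for the longer one. A region was shared when stricter peaks of both libraries overlapped by at least 1 bp. Replicate 2 held 38223 stricter peaks and replicate 3 held 17061, and 15930 regions were shared. Each peak has a deposited signal, which ran in whole multiples of a library-specific step of 0.00746 in replicate 2 and 0.0452 in replicate 3. If 1 step is 1 tag, replicate 2 was 6.05 times as deep, so absence from replicate 3 alone does not show closed chromatin. Of 20 T cell marker genes, 17 had a stricter promoter peak in replicate 2 and 7 in replicate 3 (summed signal 48.5 and 21.6). Of all genes 50.5% and 40.9% had one, so the T cell share in these lists was above that of all genes in replicate 2 and below it in replicate 3. In the permissive lists 18 and 11 of the 20 had one, beside 54.3% and 45.6% of all genes. With those lists the T cell share was above that of all genes in both libraries. The Cd8b1 promoter, of a chain of the CD8 coreceptor, had 4.17 and 3.16, whereas Cd8a had only a permissive peak in replicate 2 (1.18). Ccr7 (6.54) and Il7r (1.75), genes typical of naive T cells, had a promoter peak in replicate 2 and none in either list of replicate 3. Among 9 B cell markers 1 had a stricter promoter peak in each library (Pou2af1, 3.61 and 2.67), and Pax5 and Cd79a had none. The counts in replicates 2 and 3 were 2 and 1 of 9 myeloid, 1 and 0 of 6 NK, 1 and 0 of 7 erythroid and megakaryocyte, 3 and 1 of 8 stromal, 1 and 0 of 5 endothelial and 2 and 1 of 6 epithelial markers. The stromal genes with a replicate 2 peak included Thy1 (0.948), which mouse T cells also express. The part of other cells in the values below was not tested.

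The sites on which the results turn are shown first, because their bases carry the footprints described later. Each is the plus strand of the GRCm38 (mm10) reference, which is the C57BL/6J genome and not the CAST parent's. Capitals mark the footprints of replicate 2, runs of a few bases that DNase I cut less than the open DNA around them. Only bases outside annotated exons are shown. The first 3 are introns of Ikzf1, the next are the stretch upstream of Ikzf2, the site beyond the 3′ end of Ikzf3, 2 sites of the Ikzf4 locus, the stretch between Ikzf5 and Acadsb, and a site in Ddc within the Ikzf1 locus.
Ikzf1 intron 3, chr11:11726221-11726520: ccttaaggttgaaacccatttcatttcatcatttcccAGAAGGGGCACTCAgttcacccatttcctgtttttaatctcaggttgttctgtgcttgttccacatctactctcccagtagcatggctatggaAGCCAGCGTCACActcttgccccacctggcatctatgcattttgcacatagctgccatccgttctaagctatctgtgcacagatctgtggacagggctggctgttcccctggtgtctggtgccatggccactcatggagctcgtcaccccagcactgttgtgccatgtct
Ikzf1 intron 4, chr11:11742821-11743020: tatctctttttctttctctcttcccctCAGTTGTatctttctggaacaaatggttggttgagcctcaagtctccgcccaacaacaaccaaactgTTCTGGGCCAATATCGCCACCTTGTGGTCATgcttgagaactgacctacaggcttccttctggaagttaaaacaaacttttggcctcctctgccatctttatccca
Ikzf1 intron 8, chr11:11766201-11766420: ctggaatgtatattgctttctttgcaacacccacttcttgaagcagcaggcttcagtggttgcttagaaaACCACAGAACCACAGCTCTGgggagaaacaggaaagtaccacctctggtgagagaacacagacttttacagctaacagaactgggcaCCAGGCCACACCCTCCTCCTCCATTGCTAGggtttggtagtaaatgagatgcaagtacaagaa
Ikzf2 upstream, chr1:69687501-69687800: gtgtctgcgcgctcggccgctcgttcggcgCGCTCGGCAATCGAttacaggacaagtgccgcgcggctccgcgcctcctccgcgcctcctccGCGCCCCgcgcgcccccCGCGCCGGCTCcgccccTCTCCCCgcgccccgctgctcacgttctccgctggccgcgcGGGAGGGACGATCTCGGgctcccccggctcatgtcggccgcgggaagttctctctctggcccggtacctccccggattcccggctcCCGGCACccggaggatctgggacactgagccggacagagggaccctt
Ikzf3 downstream, chr11:98457781-98457930: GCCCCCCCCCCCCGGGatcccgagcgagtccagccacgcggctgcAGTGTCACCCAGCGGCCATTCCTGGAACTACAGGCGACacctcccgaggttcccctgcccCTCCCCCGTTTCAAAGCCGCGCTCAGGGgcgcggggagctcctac
Ikzf4 intron 5, chr10:128637121-128637360: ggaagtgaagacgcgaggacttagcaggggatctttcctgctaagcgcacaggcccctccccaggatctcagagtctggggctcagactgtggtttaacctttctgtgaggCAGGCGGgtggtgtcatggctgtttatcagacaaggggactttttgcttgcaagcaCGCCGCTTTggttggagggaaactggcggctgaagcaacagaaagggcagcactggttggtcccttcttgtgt
Ikzf4 downstream, chr10:128612737-128612920: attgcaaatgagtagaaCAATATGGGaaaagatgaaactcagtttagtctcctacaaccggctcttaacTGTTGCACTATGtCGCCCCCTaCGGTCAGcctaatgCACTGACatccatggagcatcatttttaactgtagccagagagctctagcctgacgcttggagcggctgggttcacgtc
Ikzf5 and Acadsb, chr7:131410522-131410600: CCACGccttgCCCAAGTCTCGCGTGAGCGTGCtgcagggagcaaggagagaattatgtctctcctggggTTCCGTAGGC
Ddc body, chr11:11820321-11820520: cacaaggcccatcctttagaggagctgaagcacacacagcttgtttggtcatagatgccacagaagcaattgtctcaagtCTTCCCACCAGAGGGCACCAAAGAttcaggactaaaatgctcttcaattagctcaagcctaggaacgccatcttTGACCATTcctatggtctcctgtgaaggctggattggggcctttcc

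All 5 family promoters were open in replicate 2, and Ikzf5 had by far the strongest signal in both libraries. Promoters were taken as the starts of protein-coding transcripts widened by 1000 bp in both directions. A stricter promoter peak was present for 5 of 5 genes in replicate 2 (50.5% of all genes) and for 1 of 5, Ikzf5, in replicate 3 (40.9% of all genes). That 1 gene was also the only one with a stricter promoter peak in both libraries (40.8% of all genes). In the permissive lists the counts were 5 of 5 in replicate 2 (54.3% of all genes), 4 of 5 in replicate 3 (45.6%) and 4 of 5 in both (45.5%). Ikzf4 was the gene without a peak in replicate 3. Values of replicate 3 below are from the permissive list except for Ikzf5.

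Ikzf1, which encodes Ikaros, gave 1.95 at its promoter in replicate 2 and 2.53 in replicate 3 (mean signal 2.24 ± 0.406, SD, n = 2). The replicate 2 peak, chr11:11686037-11686186, lay wholly within exon 1. Ikzf3, which encodes Aiolos, had 1.74 and 2.30 (2.02 ± 0.400, SD, n = 2) at chr11:98545721-98546100, over exon 1 and its flanks. These values were close to each other in both libraries.

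Ikzf2, which encodes Helios, had 1.68 and 1.54 (1.61 ± 0.101, SD, n = 2) at chr1:69687501-69687860, just upstream of its outermost start. A second Ikzf2 promoter peak of 0.940 lay over exon 1 in replicate 2 alone, at chr1:69687137-69687318. Ikzf4, which encodes Eos, had 0.985 in replicate 2 over exon 1 (chr10:128645770-128645983), and replicate 3 held neither a peak nor a position with a deposited false discovery rate of 0.05 or less there. By signal, Ikzf4 therefore had the weakest promoter of the 5, and the only one not seen in both libraries. The lowest replicate 2 false discovery rate ordered them otherwise, with 2.34e-04 at the Ikzf1 promoter peak and 2.28e-07 at that of Ikzf4.

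Ikzf5, which encodes Pegasus, had 7.80 in replicate 2 and 6.96 in replicate 3 (7.38 ± 0.599, SD, n = 2) at chr7:131410481-131410700. This peak is shared with the start of Acadsb, an acyl-CoA dehydrogenase gene transcribed in the opposite direction, so the signal cannot be given to 1 of the 2 genes. Among the 11014 genes with a promoter peak in replicate 2, each taken by its strongest, the Ikzf5 signal stood at the 85.4th percentile. Among the 8919 such genes of replicate 3 it stood at the 77.6th. A peak near the starts of 2 genes counted for both. In replicate 2 the other members stood at the 25.8th (Ikzf1), 22.8th (Ikzf3), 21.8th (Ikzf2) and 10.7th (Ikzf4) percentile. The promoters of these 4 members thus lay below the replicate 2 median of genes with a stricter promoter peak, which was 3.75. In replicate 3 that median was 4.65, and Ikzf1, Ikzf3 and Ikzf2 lay below it. These members were in the permissive list alone there, so they were set against genes that had passed the stricter list. A low signal in few cells and a partly open promoter in all cells cannot be told apart in such bulk data.

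The order of the promoter signals was Ikzf5, Ikzf1, Ikzf3, Ikzf2 in both libraries, with Ikzf4 last in replicate 2. Exact 95% Poisson intervals, which hold only if 1 step is 1 tag and cover counting error only, put replicate 2 at 7.34 to 8.29 for Ikzf5 and 0.824 to 1.17 for Ikzf4. The intervals of Ikzf1 (1.73 to 2.21), Ikzf3 (1.52 to 1.98) and Ikzf2 (1.47 to 1.91) overlapped one another, so the order of these 3 neighbours was not resolved. In replicate 3 the intervals were 5.90 to 8.15 for Ikzf5, 1.91 to 3.28 for Ikzf1, 1.72 to 3.03 for Ikzf3 and 1.06 to 2.15 for Ikzf2. Ikzf5 was again separate and the other 3 again overlapped.

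**Figure D1:**
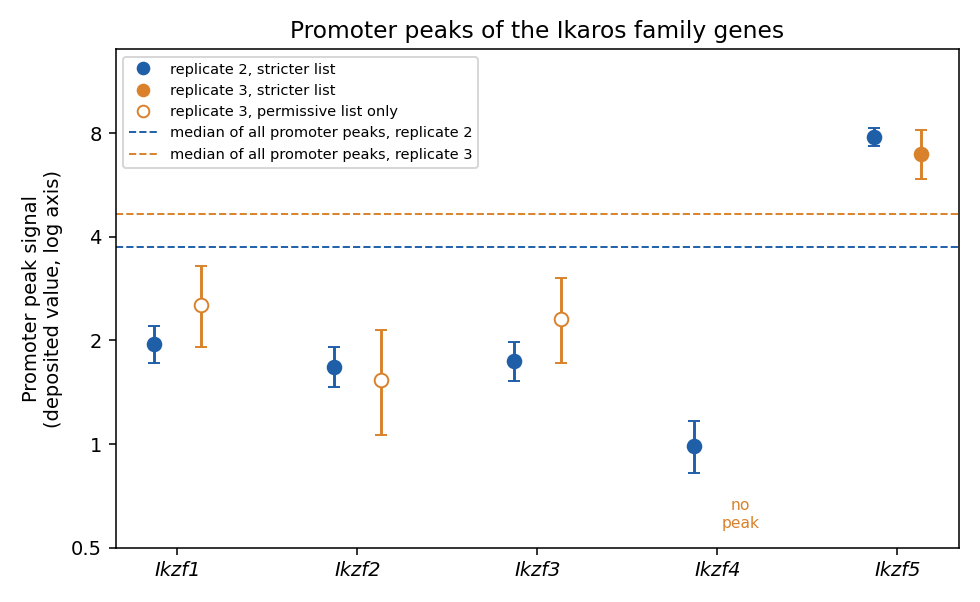
Promoter peak signal (log axis) of the 5 Ikaros family genes in both libraries, with exact 95% Poisson intervals (counting error only, if 1 step is 1 tag) as bars. Dashed lines are the median of each library over genes with a stricter promoter peak, each gene taken by its strongest peak. Open points are peaks of the permissive list alone. Ikzf5 sits at 7.80 and 6.96, above both medians, and the other members sit below them.

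How often replicate 3 holds a promoter of a given strength was read from all genes whose replicate 2 promoter signal was 0.8 to 1.25 times that of a member. For Ikzf1, 75.2% of 1404 such genes had a stricter peak in replicate 3 and 91.0% a permissive one. The shares were 69.6% and 87.4% of 1258 genes for Ikzf3 and 68.2% and 86.7% of 1224 genes for Ikzf2. For Ikzf4 they were 26.7% and 57.9% of 881 genes, and for Ikzf5 99.8% and nearly all of 2025 genes. The Ikzf1 promoter held a replicate 3 position with a false discovery rate of 7.18e-04 and yet was in the permissive list alone. The lowest rate in replicate 3 was 4.67e-03 at the Ikzf3 promoter and 2.73e-02 at that of Ikzf2.

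**Figure D2:**
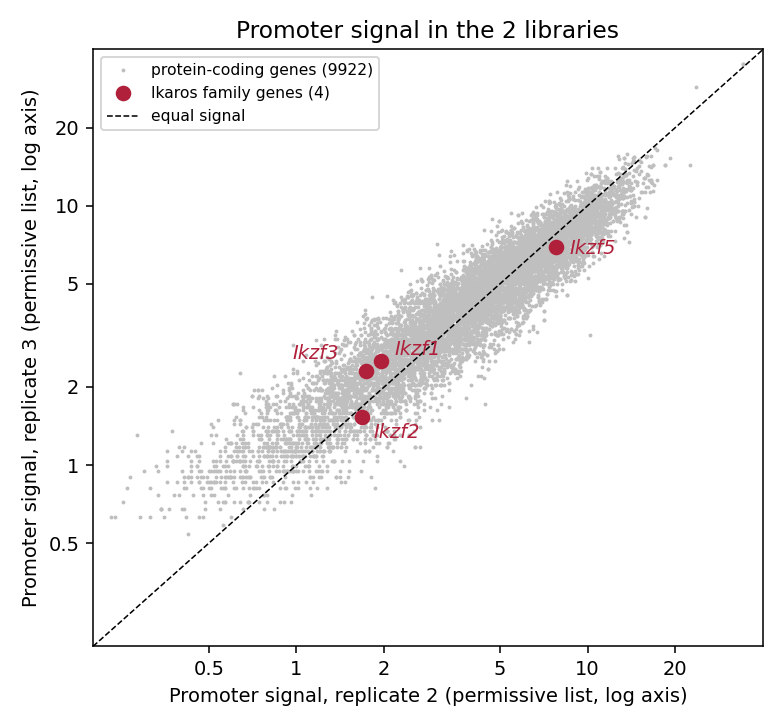
Promoter signal in replicate 2 (horizontal) and replicate 3 (vertical) from the permissive lists, both on log axes, for the 9922 protein-coding genes with a promoter peak in both (grey) and the 4 Ikaros family genes among them (red). Ikzf1 and Ikzf3 lie above the line of equal signal, and Ikzf2 and Ikzf5 below it.

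The 5 loci held 41 stricter peaks in replicate 2 (0.107% of its peaks) and 16 in replicate 3 (0.0938%), of which 15 regions were shared. The Ikzf1 locus had 13 peaks in replicate 2, 4 in replicate 3 and 4 shared regions. Ikzf3 had 13, 5 and 4, Ikzf4 had 9, 4 and 4, Ikzf5 had 3, 3 and 3, and Ikzf2 had 3, 0 and 0. The median over the 5 loci was 9, 4 and 4, beside 4, 2 and 2 over the loci of all genes. Of all genes, 70.5% had at least 1 shared region in their locus, as 4 of the 5 members did. In the permissive lists 25 regions were shared, and Ikzf1 then had the most, with 10.

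Many of the shared regions lay at starts of neighbouring genes, a position that does not show which gene a site serves. In replicate 2, 7 of the 41 stricter peaks lay at promoters of family genes and 11 at promoters of other genes alone. Of all 38223 replicate 2 peaks, 16352 lay at promoters. Of the 15 shared regions, 9 lay at promoters of other genes alone. These were the promoters of Fignl1 in the Ikzf1 locus, of Mien1, Zpbp2 and Ormdl3 in the Ikzf3 locus, of Rps26 (2 regions) and Suox in the Ikzf4 locus, and of Pstk and 2310057M21Rik in the Ikzf5 locus. The other 6 shared regions were 3 in the Ikzf1 locus and 1 each in the loci of Ikzf3, Ikzf4 and Ikzf5, where it was the promoter shared with Acadsb. How many of all 15930 shared regions lie at promoters was not counted, so these counts do not set the 5 loci apart. The strongest neighbours were Fignl1 (9.80 in replicate 2 and 8.81 in replicate 3), Mien1 (8.45 and 9.12) and Ormdl3 (7.27 and 6.64), each well above the promoter of the family gene beside it.

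**Figure D3:**
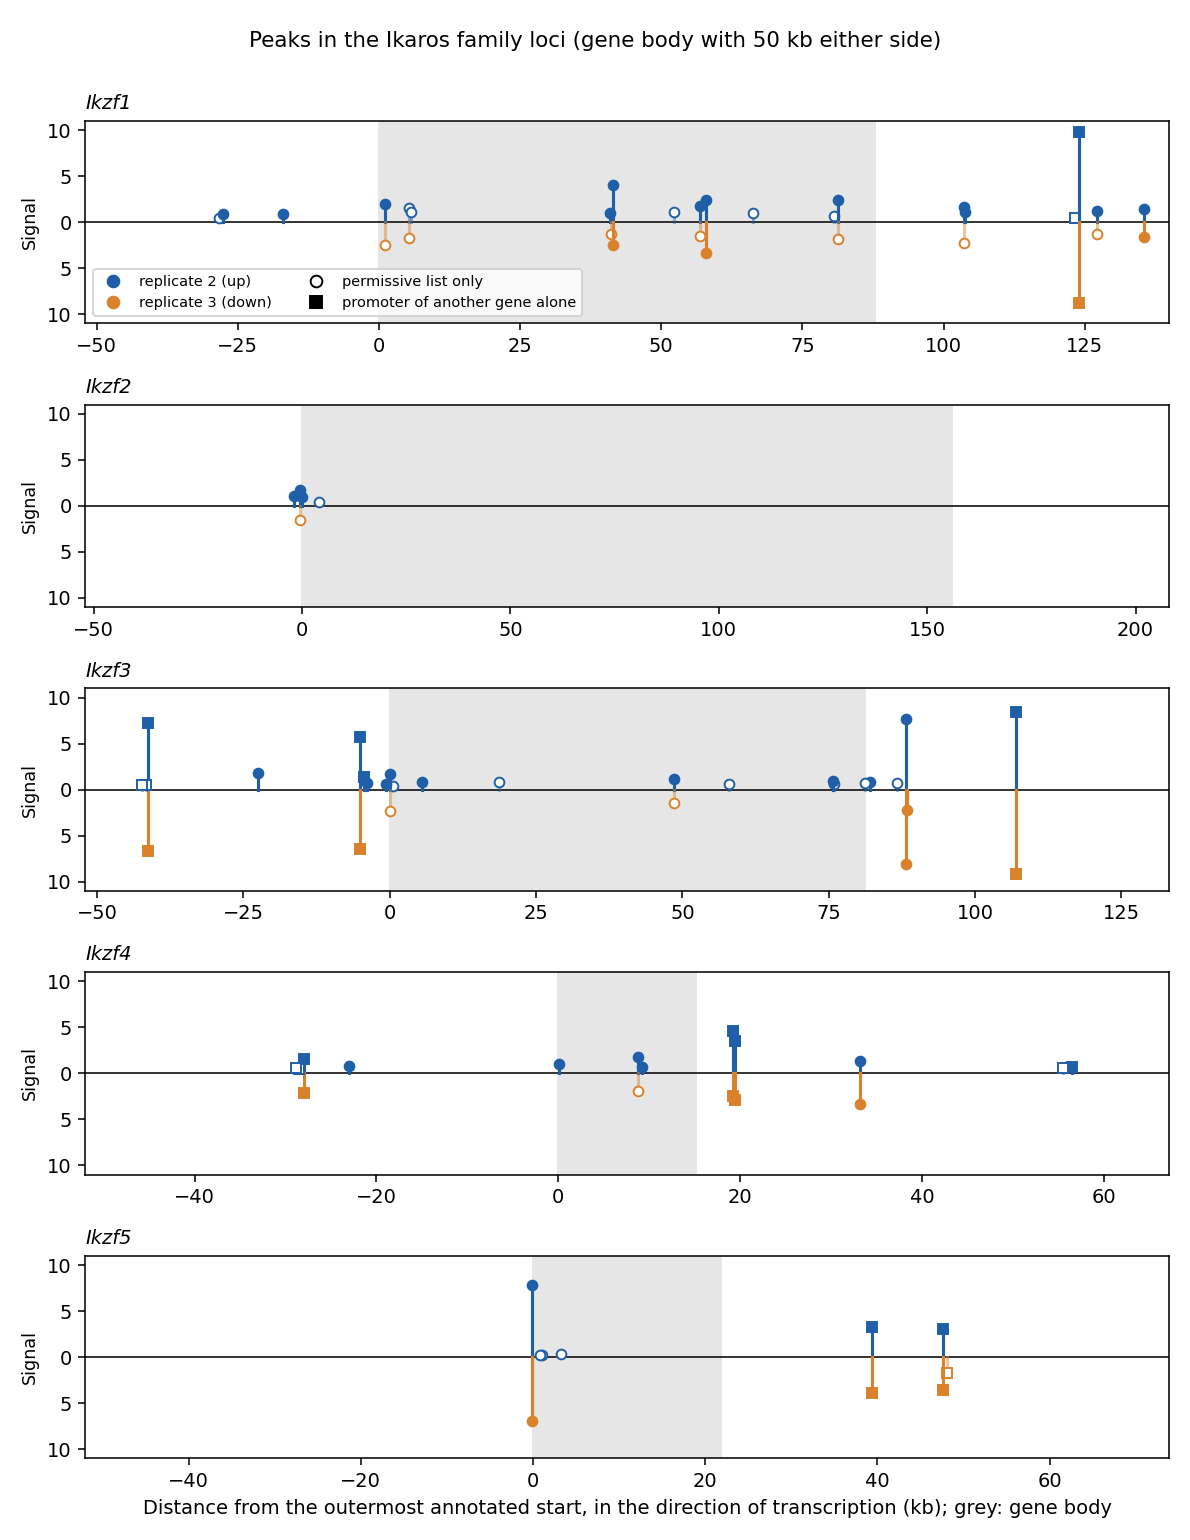
Deposited signal of each peak by its distance from the outermost annotated start (kb, in the direction of transcription), with replicate 2 upward and replicate 3 downward, one panel per gene and the gene body in grey. Filled marks are stricter peaks, open marks are permissive alone, and squares are promoters of other genes alone. Ikzf1 carries a series of intronic sites, and the body of Ikzf2 holds no peak past its promoter windows.

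Ikzf1 was the member with the most open sites inside the gene. Outside its promoter its body held 5 stricter peaks in replicate 2 and 2 shared regions. At least 1 such replicate 2 peak was found in 26.5% of gene bodies and at least 1 such shared region in 11.9%, and 2.26% and 2.52% of genes had as many as Ikzf1. Among 4410 genes of 0.5 to 2 times its length, the shares were 5.83% and 5.87% and the median was 1 replicate 2 peak.

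The strongest site inside Ikzf1 in replicate 2 was in intron 3 (chr11:11726221-11726520), with 4.05 in replicate 2 and 2.44 in replicate 3. The shared site of intron 4 (chr11:11742821-11743020) had 2.45 and 3.34 and was the strongest in replicate 3. The intron 8 site near the 3′ end of the gene (chr11:11766201-11766420) had 2.45 in replicate 2 and 1.81 in the permissive list of replicate 3. All 3 exceeded the Ikzf1 promoter in replicate 2, which had 1.95. In replicate 3 the intron 4 site exceeded the promoter, and those of intron 3 and intron 8 did not. By the Poisson intervals defined above, only intron 3 in replicate 2 (3.72 to 4.41) was clear of the promoter (1.73 to 2.21). The other intervals overlapped that of the promoter in the same library, so those orders were not resolved.

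Weaker Ikzf1 sites were a second one in intron 4 (chr11:11741705-11741929; 1.72 in replicate 2, 1.54 in the permissive list of replicate 3) and a narrow one in intron 3 (chr11:11725844-11725894; 0.970 in replicate 2). A broad site in intron 1 (chr11:11690073-11690646), chosen after its values were seen, was in the permissive list alone in both libraries, with 1.56 and 1.72. It was 574 bp wide and carried 6 footprints in replicate 2, as many as the Fignl1 promoter region. The third shared region of the locus outside other genes' promoters lay in the body of Ddc, which encodes DOPA decarboxylase (chr11:11820321-11820520), with 1.40 and 1.63.

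Ikzf2 contrasted with Ikzf1: although its body is 156 kb long, against 87.9 kb for Ikzf1, no stricter peak lay in it outside the promoter windows. Genes of 0.5 to 2 times its length (2726 genes) had a median of 1 such replicate 2 peak. Over gene bodies of any length, only 26.5% held at least 1, so having none was common. Its 3 stricter peaks were all close to the start, the pair of promoter peaks above and 1 further upstream with 1.03 (chr1:69689101-69689292). In replicate 3 the locus held only the permissive promoter peak.

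Ikzf3 had 3 intronic peaks in replicate 2, and none was in the stricter list of replicate 3. The largest, in intron 3 (chr11:98497448-98497655), had 1.16 in replicate 2 and 1.45 in the permissive list of replicate 3. The intron 7 peak (chr11:98470272-98470430) had 0.962 and the intron 1 peak (chr11:98540453-98540580) 0.776, both in replicate 2 alone. Of 4689 genes of like length 15.1% had 3 or more such replicate 2 peaks. All 3 had less signal in replicate 2 than the shared intronic sites of Ikzf1.

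The strongest site of the Ikzf3 locus outside other genes' promoters was beyond its 3′ end (chr11:98457781-98457980), with 7.69 in replicate 2 and 8.04 in replicate 3. It lies between the protein-coding genes of GENCODE M21 used here, but part of it falls in an exon of a predicted Mien1 model of RefSeq. Its GC content was 74.5% and its ratio of observed to expected CpG 0.840. The medians of replicate 2 peaks were 64.6% and 0.803 at promoters, and 51.9% and 0.282 outside them. Whether this site is a promoter was not tested. A replicate 3 stricter peak of 2.26 lay next to it (chr11:98457496-98457704). That peak is the 1 replicate 3 stricter peak of the 5 loci with no replicate 2 peak, although replicate 2 had positions with a false discovery rate of 1.13e-25 there. On the other side, between Ikzf3 and Ormdl3, a replicate 2 peak of 1.81 (chr11:98568441-98568600) had no position at or below 0.05 in replicate 3. All 160 bp of that peak lay in annotated exons, though outside the protein-coding genes used here. Of 3801 replicate 2 peaks of like signal outside promoters, 77.2% had a permissive peak in replicate 3.

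Ikzf4 has a short body of 15.1 kb with 2 sites outside its promoter in replicate 2. The intron 5 site (chr10:128637121-128637360) had 1.81 in replicate 2 and 1.94 in the permissive list of replicate 3, with a lowest replicate 3 false discovery rate of 8.90e-04. The peak over exon 6 (chr10:128636738-128636799) had 0.701 in replicate 2 alone. The intron 5 site was therefore stronger than the Ikzf4 promoter, and unlike the promoter it was seen in both libraries. Of 8049 genes of like length, 6.55% had 2 or more such replicate 2 peaks.

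Beyond the 3′ end of Ikzf4, a shared region between genes (chr10:128612737-128612920) had 1.34 in replicate 2 and 3.34 in replicate 3. Upstream, a replicate 2 peak of 0.843 (chr10:128668921-128669100) had no counterpart. The neighbouring Rps26 promoter, of a ribosomal protein gene, had peaks of 3.47 and 4.61 in replicate 2 and 2.94 and 2.44 in replicate 3. Suox, the sulfite oxidase gene, had 1.54 and 2.08, and Erbb3 had 0.642 in replicate 2 alone.

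Ikzf5, whose annotated body lies inside that of Fgfr2, had no stricter peak besides its promoter and the promoters of 2 neighbours. Pstk had 3.24 in replicate 2 and 3.84 in replicate 3, and 2310057M21Rik had 3.10 and 3.52. The Ikzf5 locus was the only one of the 5 in which every stricter peak was shared.

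The spread between the libraries was read from all 15930 shared regions, whose signal ratio of replicate 3 to replicate 2 had a median of 1.09 and a middle 90% from 0.710 to 1.77. The median over the 15 family regions was 1.08. Outside the middle 90% lay 3 of them: the Ikzf4 downstream region (2.50, 99.6th percentile), the intron 3 site of Ikzf1 (0.602, 1.09th percentile) and 1 Rps26 promoter region (0.529, 0.257th percentile). The ratio of the intron 4 site of Ikzf1 was 1.36 and that of the shared promoter of Ikzf5 was 0.891, both inside it. The order of the 2 shared intronic sites of Ikzf1 was opposite in the 2 libraries, so which is stronger was not settled.

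**Figure D4:**
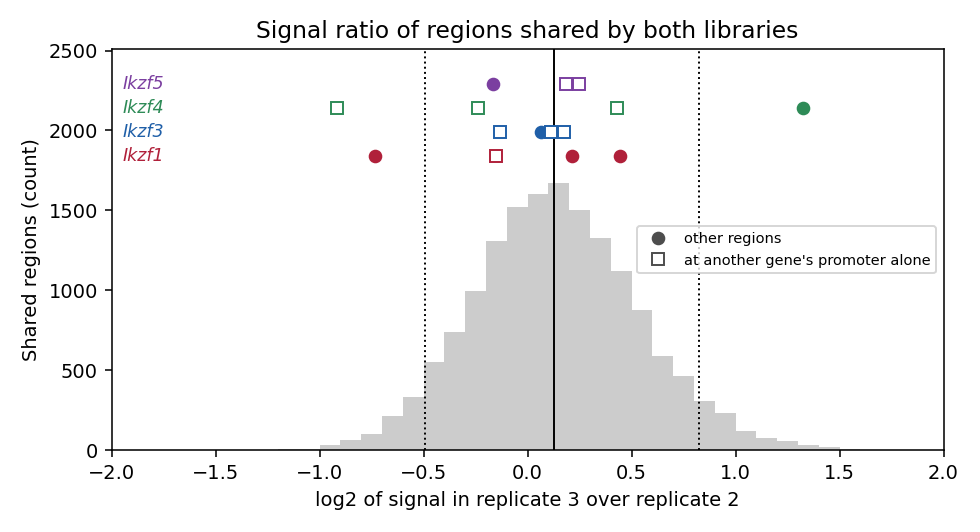
Number of shared regions by log2 of the signal ratio of replicate 3 to replicate 2, for all 15930 (grey bars), with the median (solid line), the limits of the middle 90% (dotted lines) and the 15 regions of the Ikaros family loci as marks above (their height only separates the genes). Open marks lie at promoters of other genes alone, filled marks are all other regions (with the promoter that Ikzf5 shares with Acadsb), and 3 marks fall outside the dotted lines.

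Of the 41 sites with a replicate 2 stricter peak, 26 had none in replicate 3. Over the genome, 38223 replicate 2 stricter peaks gave 15930 shared regions, beside 41 and 15 here, so such absence was common in general. A permissive peak was present in replicate 3 at 9 of the 26 sites. Positions with a false discovery rate of 0.05 or less alone were present at 1, and no such position at 16. The strongest of the 16 was the site of 1.81 between Ikzf3 and Ormdl3. In the other direction, 3 sites had a replicate 3 peak of either list and no replicate 2 peak. All 3 held positions at or below 0.05 in replicate 2, with lowest rates of 1.13e-25, 1.33e-15 and 2.65e-09. Each lay close to a replicate 2 stricter peak, of 7.69, 3.10 and 4.05 in the same order. Whether these rates belong to the flank of that peak was not tested. Within such intervals, peak lists and false discovery rates therefore did not fully match. Sites of the permissive list alone that held a rate of 0.001 or less numbered 4 of 22 in replicate 2 and 3 of 12 in replicate 3.

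The loci held 43 footprints in replicate 2 and 8 in replicate 3 for Ikzf1, 14 and 0 for Ikzf2, 55 and 15 for Ikzf3, 31 and 6 for Ikzf4 and 29 and 12 for Ikzf5. In total these were 172 and 41, with median widths of 9 and 8 bp. Inside stricter peaks lay 72.1% and 87.8% of them, beside 75.4% and 89.6% of all footprints. Of the 41 in replicate 3, 28 (68.3%) overlapped one of replicate 2 by at least 1 bp, beside 66.9% of all replicate 3 footprints. The Ikzf2 promoter region held 12 of the 14 Ikzf2 footprints, and 20 of the 29 in the Ikzf5 locus lay at neighbours' promoters.

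Motif matches were counted on both strands of the 41 replicate 2 stricter peaks, as letters and not as bound sites. The Ikaros core TGGGAA, which is also the core of RBPJ motifs, was in 11 of 41 (26.8%), beside 15.7% of all 38223 peaks. Without peaks at promoters of other genes alone it was in 7 of 30 (23.3%). In replicate 3 it was in 3 of 16 stricter peaks (18.8%), beside 13.3% of all 17061. Other motifs were rarer than in all replicate 2 peaks, such as CCACCC (17.1% beside 24.4%) and the NFY motif CCAAT (14.6% beside 22.8%). The RUNX core TGTGGT was in 10 (24.4%), beside 17.4%. CTCF matches were in 4 (9.76%), beside 9.82%, and NRF1 matches were in 4 (9.76%), beside 4.18%. All 4 peaks with NRF1 matches were promoters of neighbouring genes, and their matches touched footprints in both libraries.

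In the sequences above, the Ikzf1 intron 4 site has TGTGGT inside a footprint of replicate 2, and a replicate 3 footprint touches its first base. In the intron 8 site, 2 copies of the reverse complement ACCACA lie in 1 replicate 2 footprint. The intron 3 site has TTCCCAGAA at chr11:11726253-11726261, in which the Ikaros core overlaps a match to the STAT motif TTCNNNGAA, and its last bases lie in a footprint of replicate 2. In the Ikzf3 downstream site, TTCCTGGAA, another STAT match, touched footprints in both libraries.

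Of 11 Ikaros core matches in replicate 2 peaks, 4 touched a replicate 2 footprint and 2 of these also a replicate 3 footprint. The 4 were in the Ikzf1 intron 3 site, the Ddc site, the Ikzf4 downstream region and the 2310057M21Rik promoter. In the intron 3 site and the 2310057M21Rik promoter, only the last plus-strand base of the core lay in the replicate 2 footprint. How often motif matches in all peaks touch a footprint was not counted, so these counts do not show protection of the core. In the Ddc site the core overlaps the CTCF match, and in the Ikzf4 downstream region it overlaps the NFAT core GGAAAA. All 4 CTCF matches touched a replicate 2 footprint: the Ddc site, a site in the Fignl1 body (1.61), the intron 1 peak of Ikzf3 and the site of 1.81 between Ikzf3 and Ormdl3. None of the 5 family promoters held a CTCF match in its replicate 2 peak. GGGCGG, the KLF and SP box, was in 31.7% of the 41 peaks and in 32.0% of all peaks.

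The promoters of partner and target genes of Ikaros proteins were read the same way. Of 18 genes of NuRD and other co-repressor complexes, 16 had a stricter promoter peak in replicate 2 (50.5% of all genes) and 14 in replicate 3 (40.9%), and the same 14 had it in both. The strongest were Gatad2a (12.8 and 8.99), Mbd3 (12.0 and 8.58), both NuRD subunits, and Smarca4 (10.8 and 10.1), the BRG1 remodelling ATPase. Chd4, the NuRD remodelling ATPase, had 2.22 and 3.84, and Hdac1 5.07 and 6.05. Ctbp2 had no promoter peak in either library.

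Of 16 genes known in lymphocytes as regulated by Ikaros proteins, 7 had a stricter promoter peak in replicate 2 (50.5% of all genes) and 3 in both libraries (40.8% of all genes), so neither share was above that of all genes. These 3 were Ets1 (7.57 and 7.09), a lymphoid transcription factor, Notch1 (2.22 and 3.12) and Hes1 (1.31 and 1.76), a Notch target. Bcl6 had 5.61 in replicate 2 and 5.01 in the permissive list of replicate 3, and Myc had 2.27 in replicate 2 alone. Dntt, Rag1, Rag2, Igll1 and Vpreb1, used in antigen receptor assembly in precursors, had no promoter peak, and neither did Il2, Foxp3 and Cd79a.

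The genes most like each member were found over 4 values, the percentiles of promoter signal and of stricter peaks per 100 kb of locus in each library. For Ikzf1 they were Icam4 and Gpi1, at distances of 1.70 and 1.91 percentile points. Ikzf2 was nearest to Etv6 (0.150) and Dennd1b (1.06), and Ikzf3 to Fam71b (1.35) and Tagln2 (1.57). Ikzf4 was nearest to Scd2 (2.19) and Sigirr (3.06), and Ikzf5 to Endov (2.12) and Dhodh (2.39). Promoter signal here was that of the stricter lists, and genes without such a peak took the lowest value. In replicate 3 this held for Ikzf1 to Ikzf4 and for all their nearest genes, so that value was tied. For Ikzf2, Etv6 and Dennd1b the locus also held no stricter peak in replicate 3, so both replicate 3 values were tied. No member was among the nearest of another, since the rule left out the family.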

How the data were processed

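DNase-seq peaks, false discovery rates and footprints of 2 libraries (replicates 2 and 3) were used. Per the notes deposited with the libraries, the authors made each list on mm10 from that library's own alignments and did not pool them; the aligner and callers were not given in the sources used here. For each peak the deposited signal is the authors' value, and its scaling is not stated. The authors also deposited q-values, as a false discovery rate for each stretch of positions, up to 0.05. The value column of the deposited footprints holds 1 constant, so only their intervals were used, and there were 0 unused columns of per-sample values.

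Signals were compared as deposited. Within a library, every signal below 2 was a whole multiple of 1 step within a tolerance of 0.05 step (25650 of 25650 and 4539 of 4539 stricter peaks). If signal is tags per 1e+06, replicate 2 had 1.34e+08 tags and replicate 3 had 2.21e+07. Genes and starts were those of protein-coding transcripts of the GENCODE M21 basic annotation, so starts of non-coding transcripts were left out. Each peak was put in 1 class, in the order own promoter, other promoter, exon, intron, body of another gene, between genes. With 1 group, no test was made. Members and gene lists were chosen with earlier results of these data known. Named were the 5 genes, every peak at their promoters, shared regions away from other promoters, the 3 strongest unshared replicate 2 sites per locus, neighbours with a promoter peak, and the 3 strongest genes of each list. Further names were added after their values were seen. Alternatives changed the peak list, flank, overlap, promoter window, scale, motif window and library. Counting in loci was tested on simulated data. Tables were handled with pandas 2.3.3 and numpy 2.4.6 under Python 3.11.15, intervals with scipy 1.17.1, sequences with pysam 0.24.0 and figures with matplotlib 3.10.9.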

Additional observations from a re-analysis of the deposited data

How the results depend on the processing

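The 15 shared regions of the 5 loci became 25 with the permissive lists, 7 with a flank of 10 kb, 3 with gene bodies alone and 6 without regions at promoters of other genes alone. They stayed within 1.5 times with a flank of 100 kb (22), with an overlap of 50% of the shorter peak (15) and with the strongest replicate 2 peaks, as many as replicate 3 has (13). Single libraries gave 16 to 41 peaks. Per locus, 21 of 35 alternative counts stayed within 1.5 times. Promoter peaks in both libraries rose from 1 to 4 with the permissive lists, and single libraries gave 1 to 5. Targets of Ikaros proteins went from 3 to 6 with a promoter window of 2500 bp and to 5 with the permissive lists, and single libraries gave 3 to 7. The 28 overlapping footprints became 14 at an overlap of 50% of each footprint, and single libraries gave 41 to 172. Partner genes (14 to 16), regions outside the middle 90% of ratios (3 to 4) and peaks with an Ikaros core (11 to 16) stayed within 1.5 times. No paired analysis was possible because there is 1 group, so no groups share replicate numbers. Whether depth accounts for the sites missing from replicate 3 was not tested, and absence there was not shown to be closed chromatin.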
